A study of Mus musculus with 14 samples.

Results

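The 41 genes described here encode the machinery of presynaptic vesicle release: vesicle membrane proteins and synapsins (7 genes), synaptotagmins and Doc2b (8), the SNARE core and its regulators (8), the active zone and priming (9), Rab3 and its effector (4), vesicular glutamate transporters (2) and vesicle endocytosis (3). They were taken as a fixed list of symbols, and all 41 were found among the 41381 genes of the expression table and reached a TPM (a length-adjusted share of each library's transcripts on a fixed total) of at least 1 in at least 4 libraries. The RNA came from granule neuron progenitors (GNPs), the dividing cells that form cerebellar granule neurons, isolated on a Percoll gradient from mice at P7. Chd7 encodes a chromatin remodeller, and all groups carried floxed Chd7 as the study describes its mice. The 5 WT libraries are labelled Chd7 wild type in the first deposit and Atoh1-Cre negative in the later one. The 5 Het libraries are labelled Chd7 het mutant or Atoh1-Cre::Chd7 f/+, and the 4 Hom libraries Chd7 hom mutant or Atoh1-Cre::Chd7 f/f. The strain is given as C56Bl6/J in the first deposit and C57BL/6 in the later one. Atoh1-Cre acts in the granule cell lineage, recombination in the posterior lobe is incomplete by the study's account, other cells keep Chd7, and the sex of the pups was not distinguished. Sequencing was done in 2 batches. The first took 8 libraries, namely WT 1, WT 2, WT 3, Het 1, Het 2, Het 3, Hom 1 and Hom 2, and the second took the remaining 6.

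A synaptic vesicle is filled with transmitter, docks at the active zone, is primed by Munc13 and RIM proteins, and fuses through the SNARE proteins when a synaptotagmin binds calcium. Complexins hold and release the assembled SNARE complex, and amphiphysin and dynamin then retrieve the membrane. Granule neurons are glutamatergic and load their vesicles through VGLUT1 and VGLUT2, the products of Slc17a7 and Slc17a6.

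The sequence upstream of the annotated start is shown for the members lower in the libraries labelled Hom that hold the E-box CAGCTG before it, and for Syp, the lower member with the smallest adjusted p, which does not. CAGCTG is a core read by basic helix-loop-helix factors, the class to which Atoh1 and Neurod1 belong. Windows of 300 bases (250 before and 50 after a start, RefSeq, GRCm38.p6) were found for 33 of the 41 members, 43 windows in all. The 250 bases before the start are printed 5′ to 3′ on the strand of the gene, with CAGCTG in capitals, for Syt1 (chr10:109009112-109009361, minus strand), Cplx1 (chr5:108550028-108550277, minus strand), Unc13c (chr9:73969038-73969287, minus strand), Amph (chr13:18948101-18948350, plus strand) and Syp (chrX:7638330-7638579, plus strand).
Syt1: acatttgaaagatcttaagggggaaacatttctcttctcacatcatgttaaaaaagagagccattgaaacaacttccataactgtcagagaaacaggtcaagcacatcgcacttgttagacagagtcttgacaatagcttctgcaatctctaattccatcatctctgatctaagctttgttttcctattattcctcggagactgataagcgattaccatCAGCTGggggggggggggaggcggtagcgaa
Cplx1: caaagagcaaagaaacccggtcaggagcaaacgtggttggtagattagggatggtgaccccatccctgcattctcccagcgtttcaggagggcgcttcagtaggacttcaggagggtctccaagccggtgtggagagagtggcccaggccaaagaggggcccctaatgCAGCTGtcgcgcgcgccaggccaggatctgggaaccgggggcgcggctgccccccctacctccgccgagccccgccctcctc
Unc13c: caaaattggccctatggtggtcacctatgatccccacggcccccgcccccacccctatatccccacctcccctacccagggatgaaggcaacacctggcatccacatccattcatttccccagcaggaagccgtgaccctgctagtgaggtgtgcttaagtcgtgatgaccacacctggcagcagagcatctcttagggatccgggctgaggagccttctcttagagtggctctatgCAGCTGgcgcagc
Amph: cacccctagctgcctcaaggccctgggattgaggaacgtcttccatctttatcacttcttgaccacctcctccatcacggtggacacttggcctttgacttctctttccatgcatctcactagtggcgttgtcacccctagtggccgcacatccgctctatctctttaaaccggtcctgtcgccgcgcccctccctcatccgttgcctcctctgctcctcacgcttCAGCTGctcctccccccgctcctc
Syp: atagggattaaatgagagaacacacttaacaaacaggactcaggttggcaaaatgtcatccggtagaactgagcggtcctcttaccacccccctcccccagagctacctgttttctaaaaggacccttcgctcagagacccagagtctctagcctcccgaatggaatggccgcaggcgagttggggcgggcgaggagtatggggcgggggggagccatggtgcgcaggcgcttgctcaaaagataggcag
The match lay 31 bases before the start in Syt1, 82 in Cplx1, 13 in Unc13c and 24 in Amph. Syt1 has a second start, and the window there held no match. Rims1 and Slc17a7, the remaining members called lower, had none of the 3 motifs searched. CAGCTG, which reads the same on both strands, occurred in 11 of the 43 member windows (25.6%) and in 16.3% of all 32851 windows. Members not called in Hom against WT held it too. Of these, Cplx2, Rph3a and Rab3c changed upward (0.39, 0.48 and 0.16) and Sv2a, Stx1a, Bsn and Rab3a downward. The E-box CAGATG, searched on both strands, occurred in 11.6% of member windows and 17.2% of all, and the cyclic AMP response element TGACGTCA in 2.3% and 1.8%. None of the 3 motifs contains another, and the matches describe the letters of these windows only.

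The libraries held a TPM of at least 1 for 15863 to 16734 genes, and the members together made up 0.175% to 0.225% of the TPM. The targeted gene did not separate the groups: Chd7 ranged from 121 to 272 TPM in WT, from 137 to 181 in Het and from 126 to 185 in Hom, and in batch 1 both Hom libraries were above all 3 WT libraries. Gene-level TPM covers exons outside the floxed part, so it is no check of the deletion, and the groups are named as labelled. By quantitative RT-PCR the study reports fewer Chd7 transcripts in Het and Hom P7 GNPs, following the genotype. By immunostaining it reports loss of Chd7 from granule cells of Hom mice. The granule lineage markers Atoh1 (20.8 to 50.6 TPM) and Pax6 (551 to 911 TPM) were present in every library, while Gabra6, a marker of mature granule neurons, stayed at or below 1.03 TPM. Gabra6 was at 0.87, 1.03 and 0.97 TPM in WT 1 to 3 and at 0.44 in Het 3, against 0.2 or less in the other 10. In total 4 libraries stood apart in markers of other cells: the summed TPM of 6 endothelial genes was 23.6 to 32.7 in WT 1 to 3 and 19.5 in Het 3, against 106 to 431 in the other 10. Purkinje cell markers summed to 153 to 197 in WT 1 to 3 and to 38.7 to 94.2 elsewhere. In bulk RNA fewer cells of a type and less RNA per cell cannot be told apart.

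In WT GNPs the members spanned a wide range in TPM, from Syt11 (259 ± 15.3, SD, n = 5) to Unc13c (1.84 ± 0.565, SD, n = 5). Syt11, a synaptotagmin that does not bind calcium, had levels of 244, 284, 253, 261 and 254 TPM across WT 1 to 5, all above every other member except for single Vamp2 libraries. Syp, which encodes the vesicle protein synaptophysin, came next at 195 ± 17.5 (SD, n = 5), followed by the SNARE genes Vamp2 at 180.3 ± 50.5 and Snap25 at 162 ± 13.4 (SD, n = 5). Every WT value of Syp was above every one of Snap25, while the 5 Vamp2 values ran from 137 to 257 and overlapped both. The most abundant members also included both complexins, Cplx2 at 134 ± 30.6 and Cplx1 at 115 ± 16.5 (SD, n = 5), and the small GTPase gene Rab3a at 134 ± 16.9. Syt1, the fast calcium sensor of release, had 29.9 ± 1.41 TPM (SD, n = 5). At the low end, Sv2c, a vesicle glycoprotein gene, had values of 1.49, 2.03, 2.64, 2.06 and 2.68 and Unc13c, a Munc13 priming gene, had values of 2.39, 2.19, 2.13, 1.42 and 1.07 across WT 1 to 5, and these groups overlapped. TPM is adjusted for length, so these levels can be compared between genes.

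**Figure D1:**
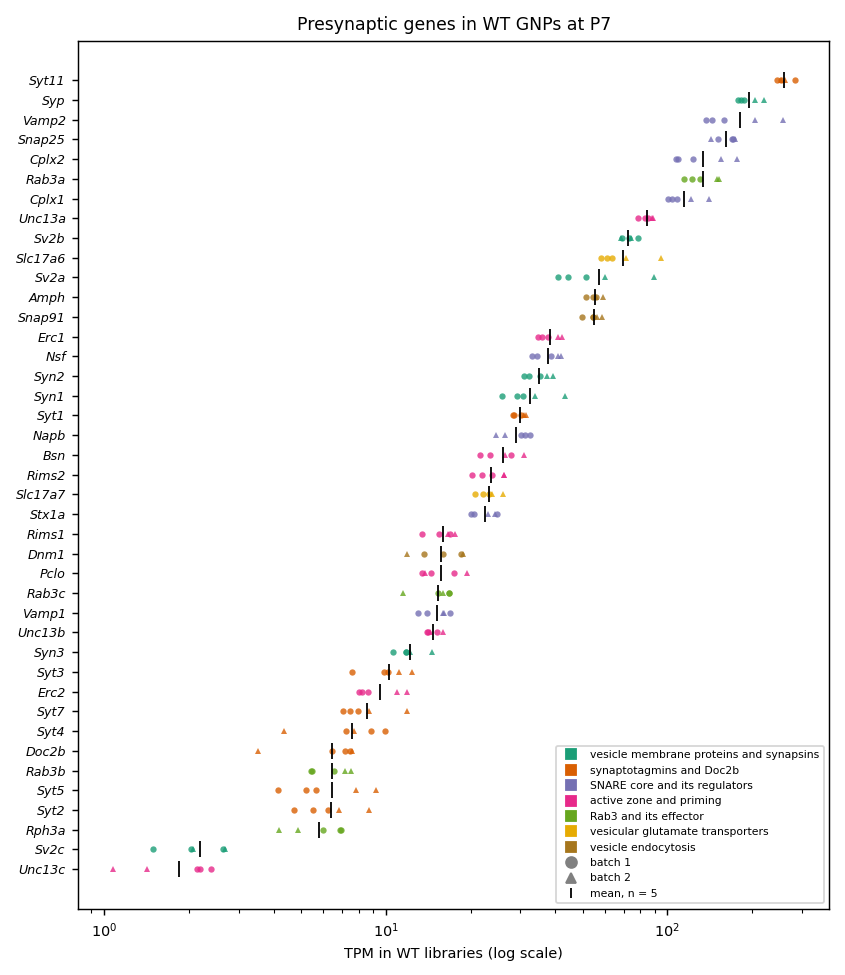
TPM (log scale) of the 41 members in the 5 WT libraries, 1 row a gene in order of the mean, with circles for batch 1, triangles for batch 2, colour for the role and a bar for the mean. The means run from 1.84 for Unc13c to 259 for Syt11.

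Whether release genes differ in GNPs of Chd7 Hom mice was asked by comparing the libraries labelled Hom with those labelled WT. Synaptophysin, the calcium sensor Syt1, complexin 1, the priming genes Unc13c and Rims1, VGLUT1 and amphiphysin were lower, and the calcium sensor Doc2b and synapsin 2 were higher. Of 41 members, 7 were called lower and 2 higher at a limma adjusted p under 0.05, where 1.41% and 1.27% of the 17325 genes tested were called lower and higher. The median log2 change of the members on log2(TPM + 1) was -0.14 against 0.02 over all genes, with 28 members below 0. At an unadjusted p under 0.05, 13 members were lower and 6 higher, where 6.42% and 8.51% of genes tested were. In batch 2 alone limma called 0 of the 41 in either direction, where it called 4 of the 17325 genes tested lower and 0 higher. Before adjustment (p under 0.05) 9 members were lower and 2 higher there, against 7.85% and 8.13% of genes tested. Without WT 1 to 3 and Het 3, an exclusion chosen after seeing the data, limma also called 0 members. Over all genes tested it called 109 lower and 59 higher. At that unadjusted p 13 members were lower and 3 higher, against 9.04% and 8.77% of genes tested. The 9 called members kept their direction in both cases, though they were chosen by a fit that includes the same libraries.

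**Figure D2:**
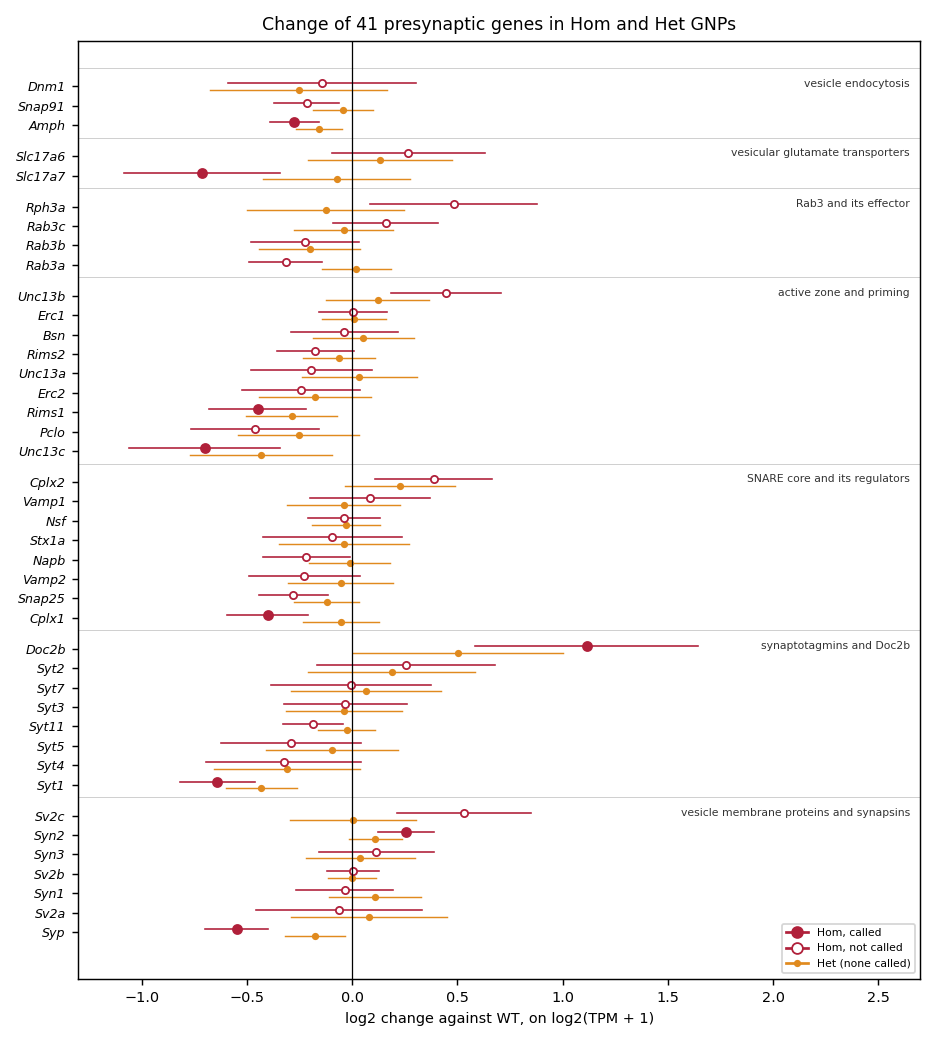
Log2 change against WT, on log2(TPM + 1), with its 95% interval for each of the 41 members grouped by role, in red for Hom (filled where called) and orange for Het. The 7 filled points below 0 run from -0.71 to -0.27, and the 2 above 0 stand at 0.26 and 1.12.

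Among the 7 vesicle membrane proteins and synapsins, 1 was called lower and 1 higher. Syp (ENSMUSG00000031144; GRCm38 chromosome X, 7638471 to 7653256, plus strand) measured 178, 188, 182, 220.3 and 205 TPM across WT 1 to 5, 150.2, 172, 172, 186 and 181 across Het 1 to 5, and 119.7, 128, 165 and 129 across Hom 1 to 4. Every Hom library lay below every WT library, and Hom 3 was the highest of the 4. The log2 change was -0.55 (SE 0.070, limma adjusted p 0.000714). Exons of Gm14703 on the other strand overlap Syp and were at 3.4 to 7.81 TPM. Syn2 (synapsin 2, a vesicle phosphoprotein; ENSMUSG00000009394) had 30.97, 35.3, 32.2, 39.3 and 37.4 TPM across WT 1 to 5 and 42.03, 40.96, 46.1 and 40.5 across Hom 1 to 4, so every Hom library was above every WT library. Its change was 0.26 (SE 0.062, limma adjusted p 0.0464), and the call held in 1 of 14 fits that left out a library, the one without Hom 4. Timp4, on the other strand with overlapping exons, ranged from 11.3 to 41.9 TPM. Syn1, which encodes synapsin 1, had 25.9, 29.2, 30.7, 33.9 and 43.1 across WT 1 to 5 and 28.1, 25.6, 42.1 and 34.9 across Hom 1 to 4, and these groups overlapped (change -0.035, 95% interval -0.27 to 0.20). Sv2c had 3.99, 3.03, 3.78 and 3.60 TPM across Hom 1 to 4, above all WT libraries, with a change of 0.53 that did not pass (limma adjusted p 0.0835). The other 3 members, Syn3, Sv2a and Sv2b, had changes between -0.061 and 0.12.

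Of the 7 synaptotagmins and Doc2b, Syt1 was called lower and Doc2b higher. Syt1 (ENSMUSG00000035864; GRCm38 chromosome 10, 108497650 to 109010982, minus strand) measured 28.2, 28.6, 30.1, 31.4 and 31.00 TPM across WT 1 to 5, 22.01, 22.9, 21.9, 18.5 and 24.4 across Het 1 to 5 and 18.3, 17.8, 18.5 and 20.9 across Hom 1 to 4. No Hom library reached the lowest WT value, and no Het library did either. The Hom change was -0.64 (SE 0.083, limma adjusted p 0.000769). Doc2b, a soluble calcium-binding protein of the release machinery (ENSMUSG00000020848; GRCm38 chromosome 11, 75768966 to 75796049, minus strand), had 7.46, 6.44, 7.13, 3.52 and 7.60 TPM across WT 1 to 5, 10.2, 6.90, 12.2, 6.03 and 12.98 across Het 1 to 5 and 16.6, 10.7, 15.6 and 16.3 across Hom 1 to 4. Every Hom library lay above every WT library, and Hom 2 was the lowest of the 4. The change was 1.12 (SE 0.25, limma adjusted p 0.0274), the largest among the members in size, and it lost its call in 6 of 14 fits without 1 library (WT 2, WT 3, WT 4, Hom 1, Hom 3 or Hom 4). The overlapping gene Gm12339 on the other strand was at 0 to 1.58 TPM. The abundant Syt11 had 216, 232, 251 and 216 TPM across Hom 1 to 4 against the WT values above, with a change of -0.18 (limma adjusted p 0.202). Syt2, Syt3, Syt4, Syt5 and Syt7 had changes between -0.33 and 0.26, none called.

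**Figure D3:**
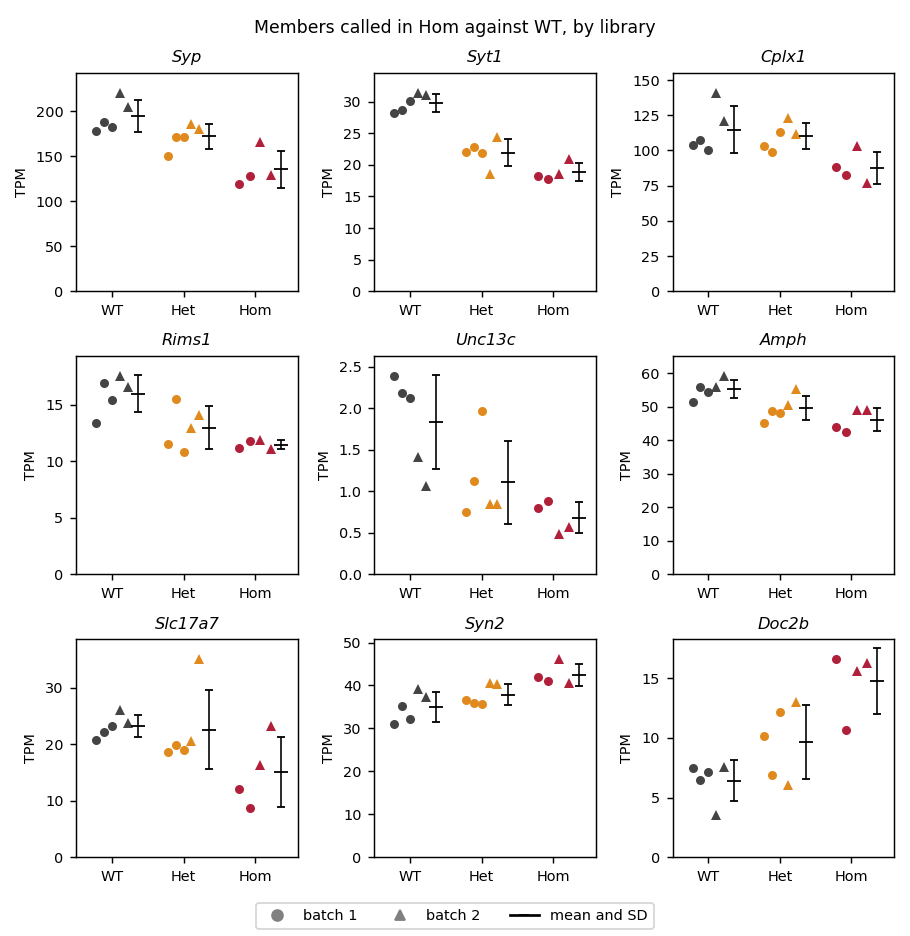
TPM by library for the 9 members called in Hom against WT, with circles for batch 1, triangles for batch 2, and a bar with its error for the mean and SD. Syp and Syt1 fall from 195 and 29.9 in WT to 135 and 18.9 in Hom, and Doc2b rises from 6.43 to 14.8.

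Of the SNARE core and its regulators, 1 of 8 was called, Cplx1. Cplx1 (ENSMUSG00000033615; GRCm38 chromosome 5, 108518554 to 108550024, minus strand) measured 104, 108, 100.2, 141 and 121 TPM across WT 1 to 5, 103, 99.1, 113, 123 and 111 across Het 1 to 5 and 88.1, 82.7, 103 and 76.8 across Hom 1 to 4. Hom 3 overlapped WT 3 in the pooled set, but within each batch both Hom libraries were below all WT libraries. The change was -0.40 (SE 0.089, limma adjusted p 0.0289), and 5 single libraries decided the call, which was absent when WT 2, WT 4, WT 5, Hom 2 or Hom 4 was left out. Cplx2, its paralog, had 107, 123, 109, 177 and 155 across WT 1 to 5 and 180.2, 192, 176 and 153 across Hom 1 to 4 and was not called (0.39, limma adjusted p 0.16). In batch 1 alone Cplx2 was called higher (0.71, limma adjusted p 0.01), and in batch 2 alone its change was -0.014 (limma adjusted p 0.974). Cplx1 made up 46.4% ± 2.30 of the complexin TPM in WT (SD, n = 5), 41.6% ± 2.01 in Het (SD, n = 5) and 33.3% ± 2.81 in Hom (SD, n = 4). The Hom range of 30.1% to 37.0% did not reach the WT range of 43.9% to 49.2%. Cplx1 had already been called on these values, so the share is no separate evidence. Such shares were also computed for other families of members. The Hom and WT ranges stood apart for Rims1 among the Rims genes and Unc13b among the Unc13 genes, and overlapped for the rest. The core SNARE genes were not called. Snap25 had 152, 171, 169, 143 and 173 across WT 1 to 5 and 131, 145, 129 and 127 across Hom 1 to 4 (change -0.28, limma adjusted p 0.0747). These groups overlapped in the pooled set, while within each batch both Hom libraries were below all WT libraries. Vamp2 had 137, 159, 144, 205 and 257 in WT and 118, 167, 165 and 172 in Hom, with Hom 1 far below the other 3 (change -0.23, limma adjusted p 0.416). For Stx1a, which encodes syntaxin 1A, the values were 24.9, 20.6, 20.1, 23.01 and 24.3 in WT and 17.5, 16.9, 30.1 and 22.99 in Hom, which overlapped (change -0.093, 95% interval -0.42 to 0.24). Vamp1, Nsf and Napb lay between -0.22 and 0.085.

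**Figure D4:**
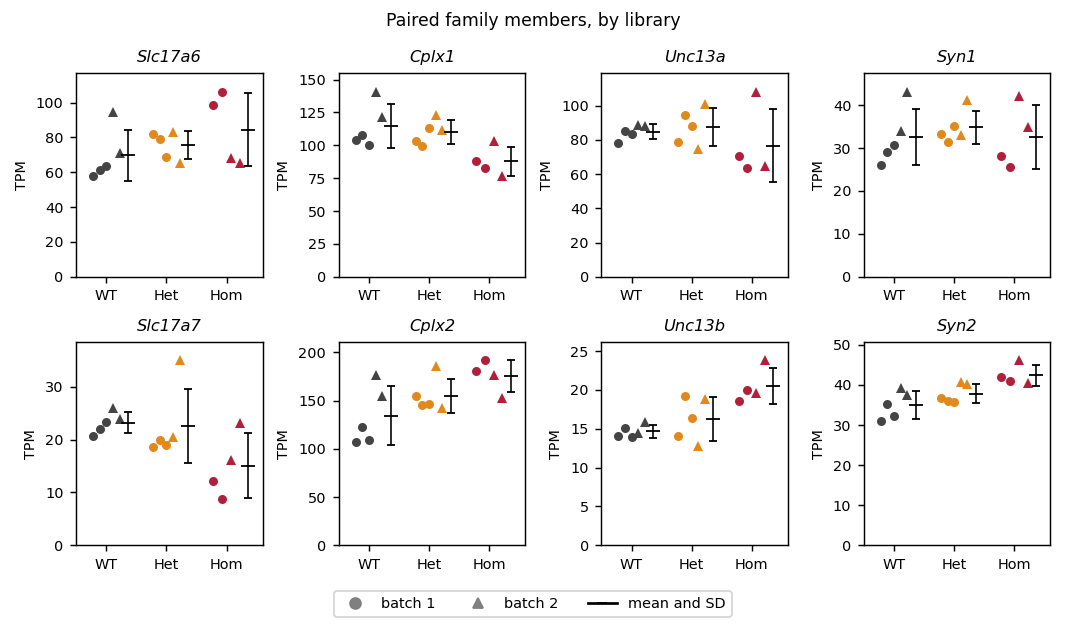
TPM by library for 4 pairs from the same families (Slc17a6 and Slc17a7, Cplx1 and Cplx2, Unc13a and Unc13b, Syn1 and Syn2), with circles for batch 1, triangles for batch 2, and a bar with its error for the mean and SD. Slc17a6 in Hom splits by batch, with 98.8 and 106 TPM in batch 1 and 68.2 and 65.1 in batch 2.

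At the active zone, Rims1 and Unc13c were called lower among 9 genes and none higher. Rims1 (RIM1, a scaffold that binds Rab3; ENSMUSG00000041670; GRCm38 chromosome 1, 22286251 to 22805994, minus strand) had 13.4, 16.9, 15.4, 17.5 and 16.6 TPM across WT 1 to 5, 11.5, 15.5, 10.8, 12.9 and 14.1 across Het 1 to 5 and 11.2, 11.8, 11.9 and 11.1 across Hom 1 to 4. The 4 Hom libraries were tightly grouped below the lowest WT library. The change was -0.45 (SE 0.11, limma adjusted p 0.042), and it kept its call in 3 of 14 fits without a library, those without WT 1, Het 2 or Het 3. Unc13c (ENSMUSG00000062151) had 0.75, 1.13, 1.97, 0.85 and 0.85 TPM across Het 1 to 5 and 0.8, 0.88, 0.48 and 0.57 across Hom 1 to 4 against the WT values above, so every Hom library was below every WT library. Its change of -0.70 (SE 0.17, limma adjusted p 0.0397) is understated at this level by the added 1 TPM, and it kept its call in 4 of 14 such fits, those without WT 5, Het 1, Het 2 or Het 3. The highest Unc13c values were those of WT 1 to 3 and Het 3, the libraries that stood apart in endothelial markers and Gabra6. The part of this in the Unc13c change was not tested. Unc13b, a further Munc13 gene, had 14.1, 15.2, 13.97, 14.4 and 15.9 across WT 1 to 5 and 18.6, 19.99, 19.6 and 23.8 across Hom 1 to 4, all Hom libraries above all WT libraries, but was not called (change 0.45, limma adjusted p 0.0736). Pclo, the scaffold Piccolo, had all 4 Hom libraries (10.2 to 11.9 TPM) below the WT range (13.5 to 19.4), with a change of -0.46 and a limma adjusted p of 0.123. Unc13a, Rims2, Bsn, Erc1 and Erc2 lay between -0.24 and 0.0038. Cplx2, Unc13b, Pclo and Rab3a lie outside the rule set for giving values and are named after their values were seen.

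Both vesicular glutamate transporters were examined, and 1 of 2 was called. Slc17a7 (VGLUT1; ENSMUSG00000070570; GRCm38 chromosome 7, 45163949 to 45176142, plus strand) measured 20.7, 22.1, 23.3, 25.98 and 23.8 TPM across WT 1 to 5, 18.6, 19.9, 18.9, 20.5 and 35.01 across Het 1 to 5 and 12.1, 8.76, 16.2 and 23.2 across Hom 1 to 4. Hom 4 lay within the pooled WT range, and the other 3 Hom libraries were below it. Within each batch both Hom libraries were below all WT libraries. The change was -0.71 (SE 0.17, limma adjusted p 0.0439), and the call was kept in 4 of 14 fits without a library, those without WT 5, Het 4, Het 5 or Hom 4. Slc17a6 (VGLUT2; ENSMUSG00000030500; GRCm38 chromosome 7, 51622006 to 51671119, plus strand) had 58.1, 61.2, 63.5, 94.8 and 71.3 across WT 1 to 5, 82.1, 79.1, 68.6, 82.98 and 65.5 across Het 1 to 5 and 98.8, 106, 68.2 and 65.1 across Hom 1 to 4. Both batch 1 Hom libraries were above their WT libraries and both batch 2 Hom libraries below theirs. Its pooled change was 0.27 (limma adjusted p 0.5), 0.74 in batch 1 alone (limma adjusted p 0.0156) and -0.30 in batch 2 alone (limma adjusted p 0.429).

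The 4 Rab3 and effector genes gave no call. Rab3a, the most abundant Rab3 gene, had 122, 131, 114, 152 and 150.4 TPM across WT 1 to 5 and 102, 86.5, 138 and 116 across Hom 1 to 4, with both Hom libraries below the WT libraries within each batch and a change of -0.32 that did not pass (limma adjusted p 0.0583). Mpv17l2 on the other strand has overlapping exons and was at 34.9 to 77.7 TPM. Rab3b, Rab3c and the effector Rph3a lay between -0.22 and 0.48. Of the 3 endocytosis genes, Amph was called. Amph (amphiphysin; ENSMUSG00000021314; GRCm38 chromosome 13, 18948205 to 19150921, plus strand) had 51.4, 55.9, 54.5, 55.8 and 59.2 TPM across WT 1 to 5, 45.2, 48.9, 48.2, 50.7 and 55.2 across Het 1 to 5 and 43.9, 42.5, 49.00 and 49.2 across Hom 1 to 4. The Hom libraries were all below the WT libraries by a small amount, and the change was -0.27 (SE 0.053, limma adjusted p 0.0135). Snap91 had a change of -0.22 (limma adjusted p 0.155) and Dnm1 of -0.14. Syp, Syt1 and Amph were called in all 14 fits that left out a library. The Hom libraries lay wholly below the WT libraries for Syp, Syt1, Unc13c, Rims1, Pclo and Amph, and wholly above them for Syn2, Sv2c, Doc2b and Unc13b, where 1.96% and 2.91% of all genes tested did so. Syp, Syt1, Unc13c and Amph also stand in the study's own list of genes lower in Hom GNPs, which was selected on these libraries, so that list is not independent evidence.

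In the libraries labelled Het no member was called by limma in either direction, against 0% of genes tested called lower and 0.00577% called higher. At an unadjusted p under 0.05, 5 members were lower (Syp, Syt1, Unc13c, Rims1 and Amph) and 1 was higher (Doc2b), where 2.88% and 3.2% of genes tested were. The largest departure from WT relative to its error was Syt1, with a Het change of -0.43 (SE 0.078, limma adjusted p 0.134), and it was the only member whose 5 Het libraries all lay below the WT libraries, as 0.583% of all genes did. The Het changes of the other 8 members called in Hom were -0.18 for Syp, -0.053 for Cplx1, -0.43 for Unc13c, -0.29 for Rims1, -0.074 for Slc17a7, -0.16 for Amph, 0.50 for Doc2b and 0.11 for Syn2. Both contrasts use the same WT libraries. The median Het change of the members was -0.04, against 0.01 over all genes tested.

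Between the libraries labelled Hom and Het, Syp was called lower and no member higher, where 0.277% and 0.15% of genes tested were called lower and higher. Its change was -0.37 (SE 0.070, limma adjusted p 0.0414), and only the fits without WT 4 or Hom 3 kept the call among the 14 that left out a library. Syt1 differed by -0.21 (95% interval -0.39 to -0.032, limma adjusted p 0.642). The corresponding values were -0.35 for Cplx1 (limma adjusted p 0.157), -0.64 for Slc17a7 (limma adjusted p 0.195) and 0.61 for Doc2b (limma adjusted p 0.672). At an unadjusted p under 0.05, 9 members were lower and 5 higher in Hom than in Het, where 3.13% and 3.05% of genes tested were.

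The sequencing batch moved the members as well. In batch 2, 8 members were called higher than in batch 1 (Syn1, Syp, Syt5, Vamp2, Rab3a, Rab3b, Slc17a7 and Amph) and none lower, where 7.88% and 5.61% of genes tested were called higher and lower. At an unadjusted p under 0.05, 1 member was lower and 12 higher, where 12.5% and 16.4% of genes tested were. The batch changes of those called ran from 0.14 for Amph to 0.48 for Slc17a7. Within batch 1 the Hom changes were -0.56 for Syp, -0.66 for Syt1, -0.28 for Cplx1, -0.81 for Unc13c, -0.37 for Rims1, -1.02 for Slc17a7, -0.31 for Amph, 0.84 for Doc2b and 0.33 for Syn2. Within batch 2 they were -0.54, -0.64, -0.55, -0.55, -0.53, -0.34, -0.22, 1.44 and 0.17 in the same order. No member differed between the batches in its Hom change at an adjusted p under 0.05, and limma called 0.0115% of genes tested lower and 0% higher for that difference. At an unadjusted p under 0.05, 4 members were lower and 0 higher, where 8.85% and 8.35% of genes tested were, so the share of members lower was near that of all genes. They were Slc17a6 (-1.04), Cplx2 (-0.73), Erc2 (-0.59) and Sv2a (-0.78).

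Gene span differs among the members, 17 of which span more than 100 kb from the first to the last annotated base. Of these, 4 were called lower and 1 higher in Hom, against 3 and 1 of the 24 shorter members. The median change was -0.04 for the 17 long members and -0.16 for the 24 shorter ones. Over all genes tested, 4.51% of the 2172 longer genes and 0.973% of the 14900 shorter ones were called lower. Called higher were 63 of the 2172 longer genes and 155 of the 14900 shorter ones. The median changes of these genes were 0.044 and 0.022.

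A further list of 50 presynaptic genes outside these 41 had 46 members tested. In Hom, 7 were called lower and 1 higher, where 1.41% and 1.27% of all genes tested were. The median change was -0.08, against 0.02 over all genes. None was called in Het, where 0% of genes tested were called lower and 0.00577% higher. Among the lower ones were Cadps2, a regulator of dense core vesicle priming (-1.89), Ppfia2, liprin alpha 2 (-0.72), Synpr, synaptoporin (-0.50), Sh3gl2, endophilin A1 (-0.43) and Syt9, a synaptotagmin (-0.34). Synaptotagmin 13, Syt13, was higher by 1.31 (limma adjusted p 0.000118). Cadps2 and Ppfia2 are also in the study's own lower list, so their direction is not independent of it. Syt9 and Cadps2 were also called lower in Hom than in Het.

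Levels of markers of other cells stand beside these results, and of them Pcp4 alone was called in Hom against WT. The summed Purkinje cell markers ranged from 54.1 to 197 TPM in WT, 45.7 to 94.2 in Het and 38.7 to 60.3 in Hom, and 6 of the 7 tested were below 0 in Hom, with a median change of -0.94. Astroglial markers ranged from 414 to 1843 TPM in WT, 592 to 1149 in Het and 344 to 697 in Hom, all 8 below 0, 5 of them at an unadjusted p under 0.05. The 6 endothelial markers, with sums of 23.6 to 199 TPM in WT, 19.5 to 431 in Het and 106 to 324 in Hom, were all above 0 with a median of 1.56, 5 of them at an unadjusted p under 0.05. Interneuron sums ran from 81.6 to 126 TPM in WT and 82.7 to 172 in Hom. Oligodendroglial sums ran from 806 to 1534 and 633 to 1546, and microglial sums from 97.8 to 226 and 152 to 231. Among the 9 granule lineage markers tested, 7 were below 0 in Hom, with a median change of -0.15, and Neurod1, a differentiation factor, was called lower. At an unadjusted p under 0.05, 4 of them were lower and 0 higher. Among the 10 proliferation markers, 6 were above 0, with a median of 0.14, and Ccnd1 was called higher. At that unadjusted p, 3 of these were higher and 0 lower, where 8.51% and 6.42% of genes tested were. The part of these cells in the members' values was not tested. In batch 2 the Purkinje sums were 54.1 to 57.6 in WT and 38.7 to 47.8 in Hom. Pcp4 was at 26.6 and 22.8 TPM in WT 4 and 5 and at 12.3 and 14.3 in Hom 3 and 4. Astroglial sums in batch 2 were 414 to 875 in WT and 344 to 697 in Hom, and endothelial sums 109 to 199 and 197 to 282. The part of these cells in the batch 2 changes was not tested either. The 9 members were called on a fit that includes the batch 2 libraries, and they kept their direction in batch 2. Their changes there were closer to 0 than in batch 1 for Syp, Syt1, Unc13c, Slc17a7, Amph and Syn2 and further from 0 for Cplx1, Rims1 and Doc2b, with Slc17a7 moving the most, from -1.02 to -0.34.

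**Figure D5:**
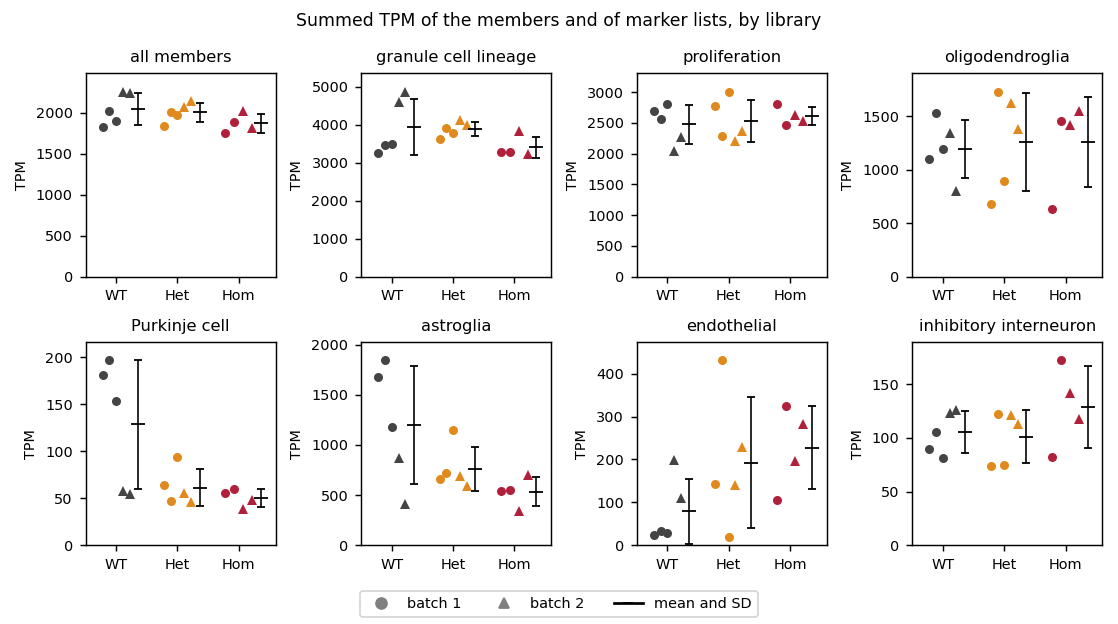
Summed TPM by library of the 41 members and of marker lists for the granule lineage, proliferation, oligodendroglia, Purkinje cells, astroglia, endothelium and inhibitory interneurons, with circles for batch 1, triangles for batch 2, and a bar with its error for the mean and SD. WT 1 to 3 are the highest in Purkinje cell markers, at 153 to 197.

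In all, 15 of the 41 members have exons that overlap those of another gene, 14 of them with genes on the other strand only. The estimation with default settings does not use the strand, so reads from the shared stretches cannot be told apart by strand. The length of those stretches was not measured.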

How the data were processed

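RNA-seq libraries of P7 GNPs (5 WT, 5 Het, 4 Hom) were analysed from 1 table of TPM values deposited by the authors. Per the study's methods, total RNA libraries were sequenced as single-end Illumina reads, mapped with Bowtie 1.0.0 to the Ensembl transcriptome of mm10 and quantified by RSEM 1.2.15, with defaults for both. The deposited columns sum to 999999.14 to 1000000.79 and 0 columns were left unused. TPM keeps no depth, so the depth of each library is unknown and no counting interval was computed. Control columns were read as WT of the same number. The titles set Het 3 with the later deposit, while the methods place it in batch 1, which was followed.

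The 17325 genes that reached a TPM of 1 in 4 or more libraries were analysed as log2(TPM + 1) with limma 3.58.1 in R 4.3.3 (lmFit, eBayes with trend), with genotype and batch as terms and all 14 libraries. Two-sided p-values received Benjamini-Hochberg adjustment over all genes tested, and called means an adjusted p under 0.05. Nothing says that the libraries are from separate animals, so the spread may be technical. The study used ComBat and a Kruskal-Wallis test. ComBat was not run here, and an exact Kruskal-Wallis test over all 252252 arrangements of batch-adjusted values was an alternative. Others were pseudocounts of 0.1 and 0.5, median-ratio and quantile scaling, filters of TPM above 0 and of a mean TPM of at least 5, 2 genotypes only, other batch terms, each batch alone, a replicate block, array weights and each library left out. The limma script was tested on simulated data. The members and lists were chosen with earlier results of these data known. Values in every library are given for members called in a genotype contrast, both glutamate transporters, 6 core genes and the 2 most and 2 least abundant members. They are also given for Cplx2, Unc13b and Rab3a, chosen after their values were seen. Of the other presynaptic genes, some called ones are not reported here by name.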

Additional observations from a re-analysis of the deposited data

Results flagged for a closer look

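In 9 of 123 groups (41 members in 3 genotypes), 1 library stood apart from the others of its genotype by Dixon's criterion, which chance does in about 1 in 20 groups. Among the Hom libraries, Hom 3 was the highest for Syt3 (14.4 TPM), Unc13a (108 TPM) and Bsn (32.4 TPM), Hom 1 was the lowest for Vamp2 (118 TPM) and Hom 2 the lowest for Doc2b (10.7 TPM). Among the WT libraries, WT 4 was the lowest for Doc2b (3.52 TPM) and Rab3c (11.5 TPM). Het 1 was the highest Het library for Rims2 (24.5 TPM) and Het 5 for Slc17a7 (35.0 TPM).

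The Hom change differed between the batches at an unadjusted p under 0.05 for 4 of the 41 members, where 8.85% of genes tested were lower and 8.35% higher at that threshold. It is given as the change in batch 2 minus that in batch 1, and no member passed adjustment over all genes. The differences were -1.04 for Slc17a6 (limma unadjusted p 0.000225, adjusted p 0.127), -0.73 for Cplx2 (limma unadjusted p 0.00126, adjusted p 0.127), -0.59 for Erc2 (limma unadjusted p 0.0211, adjusted p 0.215) and -0.78 for Sv2a (limma unadjusted p 0.0347, adjusted p 0.257).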

How the results depend on the processing

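Counts of called members in Hom against WT moved with the processing. So did some of the changes, that of Slc17a7 from -1.02 to -0.34, and the cause was not tested. Against 7 lower and 2 higher, there were 2 lower (Syp and Syt1) and 1 higher (Doc2b) with only the 2 genotypes compared in the fit, 2 and 1 with no batch term, 4 and 1 with the batch by the form of the title, 3 (Syp, Syt1 and Slc17a7) and 2 in batch 1 alone, where the 2 higher were Cplx2 and Slc17a6 in place of Doc2b and Syn2, and 0 and 0 in batch 2 alone. Median-ratio scaling gave 1 higher. Without WT 1 to 3 and Het 3 (chosen after seeing the data, since they had the 4 lowest endothelial sums) there were 0 and 0, at adjusted p 0.0549 for Syt1 and 0.0592 for Syp by limma. Calls over all genes tested moved as well. They were 245 lower and 220 higher in the main fit. With 2 genotypes they were 123 and 136, and with no batch term 163 and 161. The batch by title gave 205 and 193, median-ratio scaling 288 and 220 and the replicate block 144 and 115. Batch 1 alone gave 79 and 83, and batch 2 alone 4 and 0. The fit without WT 1 to 3 and Het 3 gave 109 and 59. The members' median change was -0.041 in batch 1 alone. Leaving out 1 library gave 3 to 6 lower, 0 to 2 higher and a median of -0.19 to -0.069, the last without Hom 1. Over all genes tested those fits gave 147 to 248 lower and 137 to 241 higher. In Hom against Het the single lower call fell to 0 with genes at TPM above 0 in at least 4 libraries, only 2 genotypes, no batch term, the batch by title, either batch alone, the 4 libraries excluded, and in 12 of 14 fits without a library (0 to 1). Over all genes tested the lower calls in Hom against Het were 48 in the main fit and 33 with the TPM above 0 filter. They were 27 with only 2 genotypes, 27 with no batch term and 42 with the batch by title. Batch 1 alone gave 7, batch 2 alone gave 2, and the fit without WT 1 to 3 and Het 3 gave 15. Batch 2 against batch 1 gave 4 to 9 members higher without 1 library. The 9 members called in Hom against WT kept their direction in every alternative run, though they were chosen on the same libraries. The exact Kruskal-Wallis test (unadjusted p under 0.01, batch-adjusted values) gave Syp, Syt1, Cplx1, Unc13c, Rims1, Snap91 and Amph lower and Syn2 and Sv2c higher, where 2.22% and 2.42% of genes tested were, and the exact p of 2.38e-05 for Syp and Amph is the smallest it can give. With the replicate block (replicate number beside batch) 2 members were lower and 1 higher in Hom against WT. Deviations of same-numbered libraries were weakly correlated at most (r from -0.235 to 0.264 over 13 pairs, across genes). So low an r shows no pairing by number but cannot exclude one, and the main fit treats the libraries as unpaired. Signs are given one by one for 25 of the 41 members. Over all 41, the members that turned sign in Hom against WT, Het against WT and Hom against Het numbered 3, 7 and 6 in batch 1 alone, 7, 19 and 8 in batch 2 alone, 4, 13 and 4 without WT 1 to 3 and Het 3, and 8, 18 and 12 in at least 1 fit without 1 library. No other alternative turned more than 6. Of the 25, those that turned in batch 1 alone were in Hom against WT Sv2a (0.29) and Erc2 (0.023), and in Het against WT Cplx1 (0.015), Stx1a (0.043) and Vamp2 (0.089), and in Hom against Het Sv2a (0.077) and Erc2 (0.070). In batch 2 alone, those of the 25 that turned were in Hom against WT Slc17a6 (-0.30), Syn1 (0.0042), Stx1a (0.15) and Cplx2 (-0.014), and in Het against WT Slc17a7 (0.11), Slc17a6 (-0.16), Syn1 (-0.049), Snap25 (0.0081), Syt11 (0.015), Sv2c (-0.017), Cplx2 (-0.027), Napb (0.17), Rph3a (0.30) and Sv2a (-0.12), and in Hom against Het Slc17a6 (-0.14), Syn1 (0.053) and Stx1a (0.31). Without WT 1 to 3 and Het 3, those of the 25 that turned were in Hom against WT Slc17a6 (-0.18), and in Het against WT Slc17a7 (0.20), Slc17a6 (-0.28), Sv2c (-0.025), Cplx2 (-0.10), Napb (0.16), Rph3a (0.23) and Sv2a (-0.20), and in Hom against Het Stx1a (0.0085). With median-ratio scaling, those of the 25 that turned were in Het against WT Sv2c (-0.0047). With quantile normalization, those of the 25 that turned were in Het against WT Rab3a (-0.0055). With the batch by the form of the title, those of the 25 that turned were in Het against WT Sv2c (-0.015), Napb (0.0037) and Rab3a (-0.049). With array weights, those of the 25 that turned were in Het against WT Sv2c (-0.015) and Rab3a (-0.0042). Leaving out 1 library turned the sign of these of the 25 in at least 1 fit, over the ranges given: in Hom against WT for Sv2a (-0.22 to 0.093) and Syn1 (-0.11 to 0.030), and in Het against WT for Stx1a (-0.11 to 0.087), Sv2c (-0.075 to 0.070), Syt11 (-0.060 to 0.013), Napb (-0.088 to 0.025), Rab3a (-0.021 to 0.066), Cplx1 (-0.085 to 0.0015), Vamp2 (-0.11 to 0.034), Sv2a (-0.010 to 0.22) and Slc17a7 (-0.18 to 0.034), and in Hom against Het for Stx1a (-0.19 to 0.034) and Erc2 (-0.19 to 0.019). The filter at a mean TPM of at least 5 gave no value for Unc13c and Sv2c. The depth behind each TPM is unknown.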
